A study of Homo sapiens with 4 samples.

Results

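The annexins and the S100 proteins S100A10 and S100A11 were followed in RNA from 2 human prostate cancer lines given morusin, a prenylated flavone of mulberry root bark, for 6 h. The genes are the 8 annexins ANXA1, ANXA2, ANXA3, ANXA4, ANXA5, ANXA6, ANXA7 and ANXA11 with S100A10 and S100A11, 10 of the 60617 gene IDs in the table. They were listed by symbol, each symbol was on 1 row, and the list was chosen by FPKM values of these libraries, with ANXA2 picked for its near absence in 22Rv1. Differences between the lines are therefore a description, and so are the morusin changes seen when the list was made. The 22Rv1 line was established from a xenografted tumour, and the PC3 line from a metastasis in bone. The 4 groups were 22Rv1 with 75 µM morusin, 22Rv1 without morusin, PC3 with 46 µM morusin and PC3 without morusin. 22Rv1 was grown in RPMI and PC3 in F12, each with fetal bovine serum and antibiotics, so line, dose and medium cannot be told apart. Each group held 1 library, so a difference between groups has no replicate check.

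Levels are FPKM, fragment numbers scaled to transcript length and to the mapped total, so they can be compared between genes. Differences are log2 ratios of FPKM + 1 unless a ratio of FPKM is named, and the added 1 makes the change of low genes look smaller. Estimated depth, read off the spacing of the smallest values, was 19.1 M pairs in 22Rv1 with morusin, 23.4 M in untreated 22Rv1, 28.6 M in PC3 with morusin and 40.6 M in untreated PC3, where M stands for mega. Errors derived from these depths cover counting error only. In such bulk RNA, fewer expressing cells and less RNA per cell cannot be told apart. KRT8, a keratin of simple epithelia, was at 114 and 107 FPKM in 22Rv1 with and without morusin and at 137 and 125 FPKM in PC3 with and without it, and KRT18, its partner keratin, was at 115 and 103 FPKM in 22Rv1 and at 132 and 111 FPKM in PC3. The other epithelial markers differed between the lines, as EPCAM was at 29 and 25.1 FPKM in 22Rv1 and at 11.8 and 10.6 FPKM in PC3, and CDH1, the E-cadherin gene, was at 64.5 and 86.3 FPKM in 22Rv1 and at 0.144 and 0.190 FPKM in PC3. Of 11 markers of leukocytes, fibroblasts and endothelium, 4 in each 22Rv1 library and 5 in each PC3 library were listed at 0, and their summed level was from 1.51 to 1.80 FPKM in 22Rv1 and from 2.86 to 4.62 FPKM in PC3.

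Annexins are proteins that bind acidic phospholipids of cell membranes when calcium is present, through a core of repeated domains, while their N-termini differ and choose their partners. S100 proteins are small calcium sensors of the EF-hand kind that pair into dimers. A dimer of S100A10 joins 2 ANXA2 molecules into a tetramer that bridges membranes, and S100A11 binds the N-terminus of ANXA1. The family is known for membrane repair, vesicle traffic, blunting of inflammation and, for ANXA2 with S100A10, assembly of plasminogen and its activator at the cell surface.

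Of the 10 genes, 9 were at least 2-fold lower and 0 at least 2-fold higher in untreated 22Rv1 than in untreated PC3, and of 14363 genes 19.2% were at least 2-fold lower and 19.8% higher. ANXA1, ANXA2 and ANXA3 reached 1 FPKM in PC3 alone and so could only be lower in 22Rv1. As the genes were picked with this contrast in view, nothing is read from that count. With morusin, 8 of the 10 were at least 2-fold lower and 0 higher in 22Rv1, against 18.6% and 25.5% of 14546 genes. There ANXA1 and ANXA3 reached 1 FPKM in PC3 alone, and nothing is read from this count either. S100A11 lay just short of 2-fold with morusin, at -0.99, and passed it after rescaling to equal sums or median centring. ANXA4 was the 1 gene that was not lower in 22Rv1. Medians over the 10 genes were -2.78 with morusin and -2.69 without it, while those over all genes compared were 0.20 and 0.11.

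**Figure D1:**
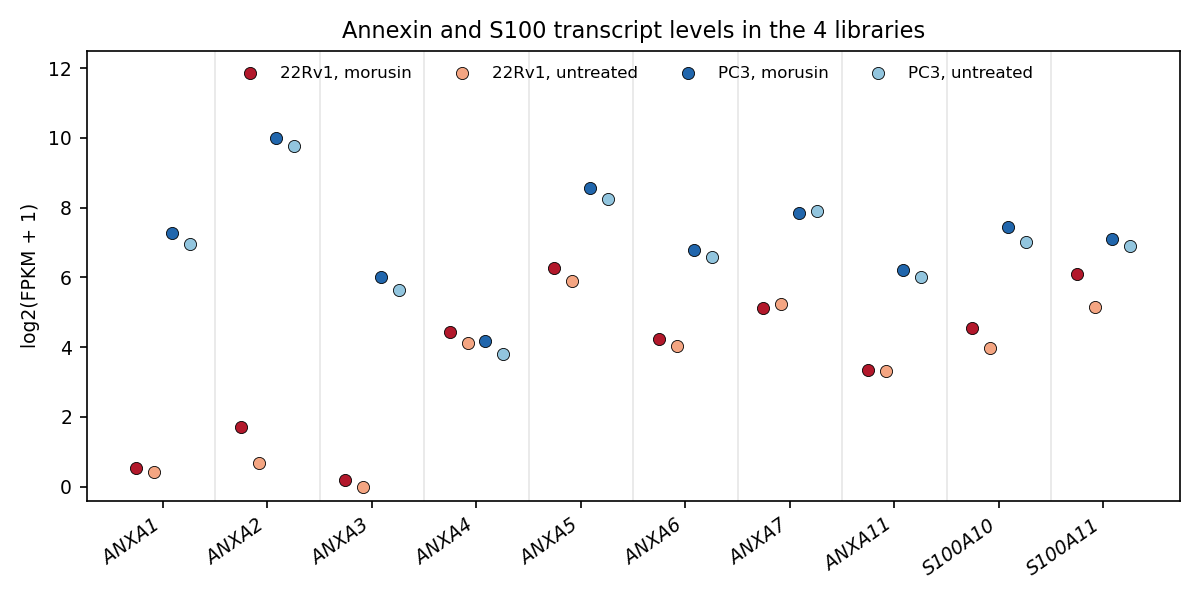
Level of each gene as log2(FPKM + 1) on the y axis, for the genes on the x axis, with 1 point for each of the 4 libraries. Points of PC3 lie far above those of 22Rv1 for ANXA1, ANXA2 and ANXA3, and the 4 points of ANXA4 lie close together.

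ANXA2 is the membrane-bridging annexin that pairs with S100A10. Its level was 2.25 FPKM in 22Rv1 with morusin and 0.61 FPKM in untreated 22Rv1, against 1030 FPKM in PC3 with morusin and 870 FPKM in untreated PC3. Among genes at 1 FPKM or more, ANXA2 stood at percentile 15.9 in 22Rv1 with morusin and at percentile 99.8 in each PC3 library. The ratio of FPKM was 459-fold lower in 22Rv1 than in PC3 with morusin and 1427-fold lower without it, with a counting error of 0.18 and 0.32 on the log2 scale. By the depth estimates the 22Rv1 values rest on 62.0 pairs with morusin and 20.6 pairs without it.

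ANXA1, a binder of S100A11 and a mediator that dampens inflammation, was at 0.456 and 0.334 FPKM in 22Rv1 with and without morusin, against 155 and 123 FPKM in PC3 with and without it. ANXA3, which acts in phagosome traffic in neutrophils, was at 0.153 FPKM in 22Rv1 with morusin and listed at 0 in untreated 22Rv1, against 63.8 and 48.8 FPKM in PC3 with and without morusin. Like ANXA2, both genes were close to absent in the 22Rv1 libraries and abundant in both PC3 libraries. ANXA1 and ANXA3 stayed below 1 FPKM in both 22Rv1 libraries, so 8 of the 10 genes passed the filter on low values for the morusin comparison in that line.

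The promoters of these 3 genes are shown because the transcripts share a near absence in 22Rv1, with that of ANXA4 as the gene whose level was alike in both lines and that of S100A10 as the partner of ANXA2. Each is the 250 bases before the RefSeq start on GRCh38.p14, read along the gene's own strand, and where RefSeq lists several starts the first is shown. Capitals mark 4 motifs searched on both strands, and overlapping matches run together. The motif bound by AP-1 factors was searched as TGAGTCA. For the box that places the polymerase near a start the letters were TATAAA. The box bound by factors of the Sp family was searched as GGGCGG. For the E-box, bound by helix-loop-helix factors, the letters were CACGTG. The spans are chr9:73151615-73151864 (plus strand), chr15:60397987-60398236 (minus strand), chr4:78551520-78551769 (plus strand), chr2:69643558-69643807 (plus strand) and chr1:151993860-151994109 (minus strand).
ANXA1: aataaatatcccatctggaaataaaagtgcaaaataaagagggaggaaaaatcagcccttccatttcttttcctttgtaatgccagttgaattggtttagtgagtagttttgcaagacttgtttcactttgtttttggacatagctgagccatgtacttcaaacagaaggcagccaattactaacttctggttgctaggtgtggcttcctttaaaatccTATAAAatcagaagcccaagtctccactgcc
ANXA2: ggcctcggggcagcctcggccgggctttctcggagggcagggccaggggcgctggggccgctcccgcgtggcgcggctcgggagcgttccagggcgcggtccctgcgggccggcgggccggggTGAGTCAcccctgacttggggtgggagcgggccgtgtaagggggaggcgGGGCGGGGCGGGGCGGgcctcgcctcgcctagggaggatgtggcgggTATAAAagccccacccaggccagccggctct
ANXA3: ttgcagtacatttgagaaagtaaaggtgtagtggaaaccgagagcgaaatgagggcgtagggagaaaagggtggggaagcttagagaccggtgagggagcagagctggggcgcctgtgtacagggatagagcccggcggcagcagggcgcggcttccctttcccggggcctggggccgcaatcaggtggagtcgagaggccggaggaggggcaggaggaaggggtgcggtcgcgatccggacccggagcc
ANXA4: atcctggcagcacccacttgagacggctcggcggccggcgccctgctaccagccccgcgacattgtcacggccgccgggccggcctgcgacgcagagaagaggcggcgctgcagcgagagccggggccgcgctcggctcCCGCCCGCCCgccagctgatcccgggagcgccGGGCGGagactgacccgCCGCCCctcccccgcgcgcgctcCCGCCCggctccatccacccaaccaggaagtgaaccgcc
S100A10: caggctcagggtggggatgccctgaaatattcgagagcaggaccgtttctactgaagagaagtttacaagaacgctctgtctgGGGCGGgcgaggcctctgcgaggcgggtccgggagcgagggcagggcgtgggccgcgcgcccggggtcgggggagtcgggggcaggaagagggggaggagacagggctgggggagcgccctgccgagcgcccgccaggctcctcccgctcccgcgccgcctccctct

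The 3 promoters had little in common in these letters. That of ANXA1 was 38.4% G and C and held no CpG, whereas that of ANXA2 was 78% G and C and held 28 CpG, and that of ANXA3 was 64% G and C and held 18 CpG. Both ANXA1 and ANXA2 had a TATAAA ending 26 bases before the start, a motif in 10.7% of 35116 promoters of this length. The ANXA2 promoter alone among the 14 starts of the 10 genes held a TGAGTCA, a motif in 4.2% of promoters, and it also held 3 overlapping GGGCGG. The ANXA3 promoter held none of the 4 motifs. GGGCGG was found at 9 of the 14 starts, which belong to 8 of the 10 genes, and in 42.6% of all promoters.

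S100A10, the calcium-insensitive S100 protein that ANXA2 holds stable, was less uneven between the lines than ANXA2. It was at 22.4 and 14.8 FPKM in 22Rv1 with and without morusin, against 173 and 128 FPKM in PC3 with and without it. All 4 libraries thus expressed it, and both 22Rv1 values lay below both PC3 values. The ratio of FPKM was 7.74-fold lower in 22Rv1 than in PC3 with morusin and 8.62-fold lower without it. The ratio of ANXA2 to S100A10 transcript level was 0.10 and 0.0411 in 22Rv1 with and without morusin, against 5.96 and 6.80 in PC3 with and without it. S100A10 mRNA was in excess of ANXA2 mRNA in 22Rv1, and ANXA2 mRNA was in excess in PC3.

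S100A11, the partner of ANXA1, was at 68.0 and 34.2 FPKM in 22Rv1 with and without morusin, against 136 and 120 FPKM in PC3 with and without it. Its gap between the lines was the narrowest of the 9 genes that were lower in 22Rv1, at 2.01-fold with morusin and 3.50-fold without it as a ratio of FPKM. S100A11 and ANXA1 transcripts were close to parity in PC3, with 0.880 and 0.970 S100A11 per ANXA1 with and without morusin. In 22Rv1 the same ratio was 149 and 102.

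ANXA5, ANXA6, ANXA7 and ANXA11 were present in both lines. ANXA5, which binds phosphatidylserine and is used as a probe of dying cells, was at 75.9 and 59.0 FPKM in 22Rv1 with and without morusin, against 377 and 306 FPKM in PC3 with and without it. ANXA6, the annexin with a doubled core, was at 17.9 and 15.4 FPKM in 22Rv1 and at 110.0 and 94.8 FPKM in PC3, in the same order. ANXA7, which has a long N-terminus and acts in membrane fusion, was at 33.8 and 36.6 FPKM in 22Rv1 and at 228 and 240.0 FPKM in PC3. These 3 genes were from 4.97 to 6.76-fold lower in 22Rv1 as a ratio of FPKM, with morusin or without it. ANXA11, which has a long N-terminus and links RNA granules to lysosomes, was at 9.24 and 9.03 FPKM in 22Rv1 and at 72.6 and 63.8 FPKM in PC3, which is 7.86-fold lower in 22Rv1 with morusin and 7.07-fold lower without it.

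ANXA4, an annexin of epithelial secretory membranes, was the exception. Its level was 20.8 and 16.4 FPKM in 22Rv1 with and without morusin, against 17.1 and 12.98 FPKM in PC3 with and without it, so the values of the lines overlapped. The log2 difference was 0.27 with morusin and 0.32 without it, close to the medians of 0.20 and 0.11 over all genes. A gene on the opposite strand, AAK1, spans part of the ANXA4 locus at 2.90 to 10.8 FPKM, and whether counting used strand is not known from the labels.

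The make-up of the annexin pool differed accordingly. The 8 annexins summed to 160 and 137 FPKM in 22Rv1 with and without morusin and to 2053 and 1760 FPKM in PC3. ANXA2 was 1.40% and 0.444% of that sum in 22Rv1 and 50.2% and 49.4% in PC3. In 22Rv1 ANXA5 led the pool, at 47.3% with morusin and 42.9% without it, followed by ANXA7, ANXA4, ANXA6, ANXA11, ANXA2, ANXA1 and ANXA3. In PC3 the order was ANXA2, ANXA5, ANXA7, ANXA1, ANXA6, ANXA11, ANXA3 and ANXA4. The order within a line was the same with and without morusin, although neighbours such as ANXA4 and ANXA6 in untreated 22Rv1, at 16.4 and 15.4 FPKM, lay close together and no replicate spread is known.

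**Figure D2:**
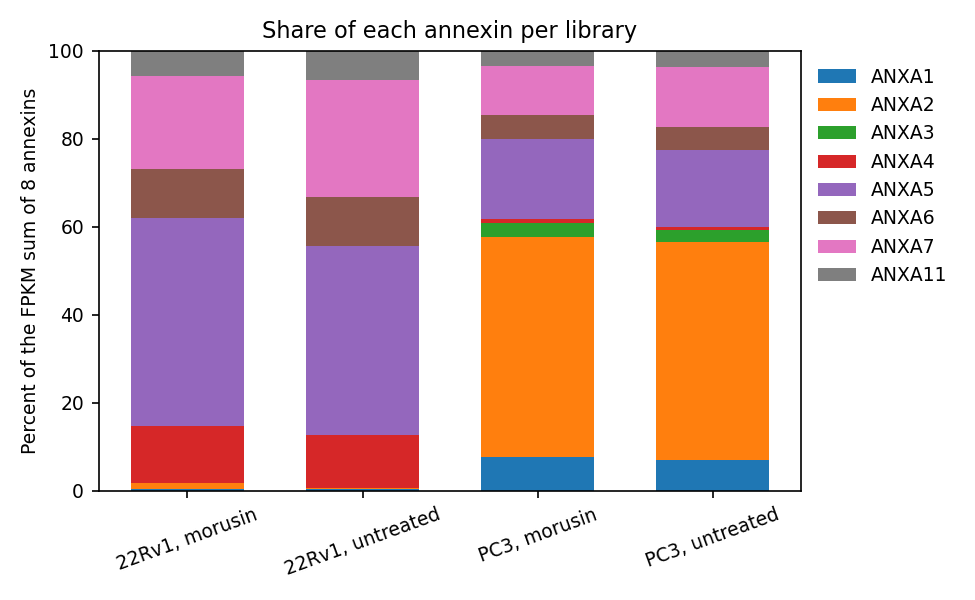
Share of each of the 8 annexins in their summed FPKM, in percent on the y axis, with 1 stacked bar for each library on the x axis. ANXA2 takes 50.2% and 49.4% of the bars of PC3 and at most 1.40% of those of 22Rv1, where ANXA5 takes the widest part.

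The copies of ANXA2 in the genome and other abundant PC3 transcripts were measured beside its low level in 22Rv1. The processed copy ANXA2P2 matched 98.4% of 1020 aligned bases of an ANXA2 transcript, ANXA2P1 93.6% and ANXA2P3 91.4%. All 3 were listed at 0 in both 22Rv1 libraries, and ANXA2P2 was at 2.16 and 2.07 FPKM in PC3 with and without morusin. The 22Rv1 level of ANXA2 was 0.218% of the PC3 level with morusin and 0.0701% without it. Of other transcripts abundant in PC3, S100A6 in 22Rv1 was at 0.915% of its PC3 level with morusin and 0.776% without it, S100A4 at 0.477% and 0.544%, CAPN2 at 0.454% and 0.166%, and PLAT at 0.152% and 0.162%. ANXA1 was at 0.294% and 0.271%, and PLAU at 0.0659% and 0.00487%. These transcripts were picked for wide gaps between the lines. That ANXA2 lay within their range therefore describes likeness of level only. S100A16 was listed at 0 in 22Rv1 with morusin and was at 274 FPKM in PC3 with morusin, and S100A2, at 53.6 and 38.8 FPKM in PC3, was listed at 0 in both 22Rv1 libraries.

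By a rule of least distance over the 4 libraries on the log2(FPKM + 1) scale, the gene nearest to ANXA2 among 10447 was PLAT, the tissue plasminogen activator, at a distance of 1.47. PLAT was at 0.850 and 0.792 FPKM in 22Rv1 with and without morusin, against 558 and 488 FPKM in PC3. COL6A1, a collagen VI chain, ALDH1A3, a retinaldehyde dehydrogenase, KRT81, a hair keratin, and IGFBP4, a binder of insulin-like growth factors, came next at distances of 1.63 to 2.09. The nearest to S100A10 was PDLIM1, an actin-associated PDZ and LIM protein, at 0.27, and ANXA6 was the fifth nearest at 0.84. The nearest to S100A11 was ISG15, a ubiquitin-like protein induced by interferon, at 0.30. These distances rest on 4 libraries of 2 lines and describe likeness of level only.

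Within each line morusin was compared with no treatment. In 22Rv1, 7 of the 8 genes measured were higher with morusin and ANXA7 was lower, with a median log2 change of 0.34. The median over all 13361 genes was -0.01, and 49.4% of them were above 0. Of the 7, ANXA11 was close to 0 at 0.03. It was at -0.15 when libraries were rescaled to equal sums, which moved the median of all genes to -0.17. With the trend on transcript length removed it was at 0.39, so its change depends on the processing. In PC3, 9 of the 10 genes were higher with morusin and ANXA7 was lower, with a median of 0.27, against a median of -0.05 and 44.2% above 0 over all 12907 genes. Of genes measured in both lines 30.2% were above 0 in both, and 7 of the 8 genes measured in both were.

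ANXA2 had the widest change in 22Rv1 and was the 1 gene of the 8 at 2-fold, at 1.01, where 3.48% of all genes were at least 2-fold higher. None of the 8 was at least 2-fold lower, against 1.02% of all genes, and in PC3 0 of the 10 were at least 2-fold higher or lower, against 1.24% and 2.64% of all genes. As a ratio of FPKM it was 3.68-fold higher with morusin, with a 95% counting interval of 2.24 to 6.06. Its call at 2-fold was lost with 5 FPKM added (0.37), with equal sums (0.89) and with the trend on transcript length removed (0.82). In PC3, where ANXA2 was abundant, the ratio of FPKM was 1.18 with an interval of 1.17 to 1.20, and the log2 change was 0.24. The changes of the 2 lines differed by 0.77 for ANXA2, and a difference of 2-fold or more either way was found in 4.23% of 11240 genes and in 0 of the 8 genes, or in 1 with 0.1 FPKM added.

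The S100 partners were higher with morusin in both lines. S100A11 was 1.99-fold higher in 22Rv1 as a ratio of FPKM, with a counting interval of 1.77 to 2.23, and 1.14-fold higher in PC3, with an interval of 1.08 to 1.20. S100A10 was 1.51-fold higher in 22Rv1, with an interval of 1.30 to 1.75, and 1.35-fold higher in PC3, with an interval of 1.30 to 1.41. Short transcripts were higher as a class in the morusin library of 22Rv1, with a median log2 change of 0.48 for 1528 genes with transcripts under 800 bases and of -0.31 for 4608 genes over 3000 bases. In PC3 these medians were 0.14 and -0.23. S100A11 has a transcript of 594 bases and S100A10 of 909 bases. With the length trend removed the log2 change of S100A11 was 0.52 in place of 0.97 in 22Rv1 and 0.02 in place of 0.19 in PC3, and that of S100A10 was 0.16 in place of 0.56 and 0.31 in place of 0.43.

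**Figure D3:**
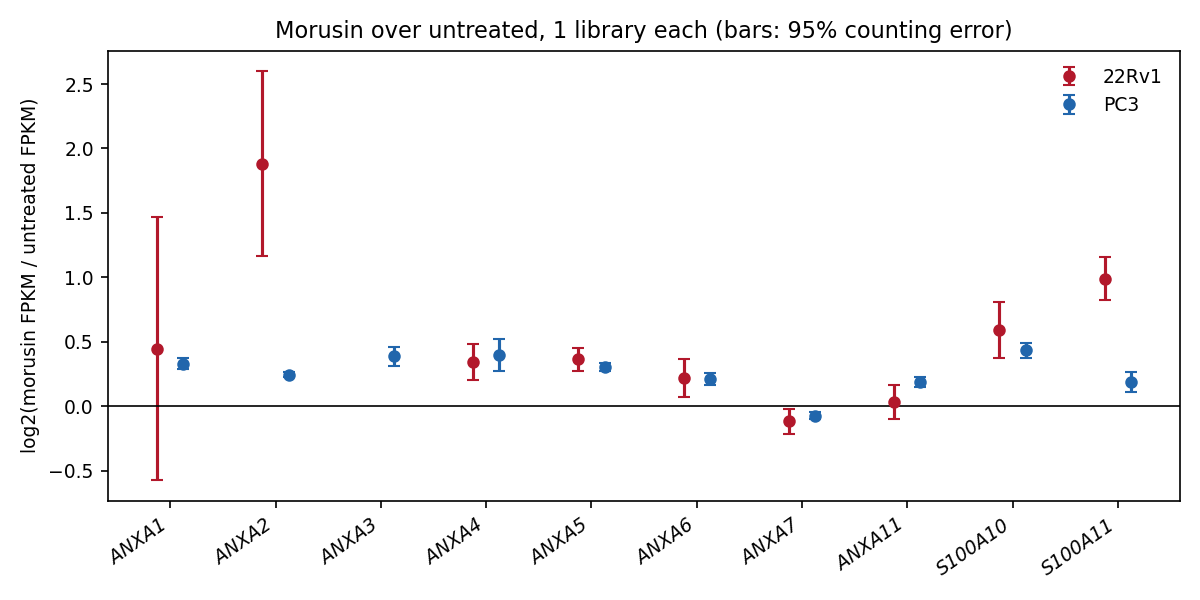
Log2 ratio of FPKM with morusin over that without it on the y axis, for the genes on the x axis, in 22Rv1 and PC3. Points are single libraries over single libraries, bars are 95% counting intervals, and ANXA3 has no point in 22Rv1, where it was listed at 0 without morusin. The highest points are those of ANXA2 and S100A11 in 22Rv1, and ANXA7 lies below 0 in both lines.

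The other annexins differed by at most 1.36-fold from the untreated level in either line, leaving aside ANXA3 in 22Rv1, which has no ratio. ANXA1 was 1.36-fold higher in 22Rv1 with a counting interval of 0.671 to 2.76, so that no difference was detectable at that depth, and 1.26-fold higher in PC3 with an interval of 1.22 to 1.29. ANXA3 was 1.31-fold higher in PC3. ANXA4 was 1.27-fold higher in 22Rv1 and 1.32-fold higher in PC3, and ANXA5 was 1.29-fold and 1.23-fold higher. ANXA6 was 1.16-fold higher in both lines and ANXA11 was 1.02-fold and 1.14-fold higher. The ANXA11 transcript has 4627 bases. With the length trend removed its log2 change was 0.39 in place of 0.03 in 22Rv1 and 0.40 in place of 0.18 in PC3. ANXA7 stood apart in direction, at 0.921-fold in 22Rv1 and 0.950-fold in PC3, with counting intervals of 0.863 to 0.983 and 0.931 to 0.969. Its log2 change in PC3, -0.07, was close to the median of -0.05 over all genes. That change was -0.02 with median centring or with the length trend removed, and -0.17 with equal sums. In 22Rv1 it was -0.12, against a median of -0.01.

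Whether the lines shared a change was tested with limma across 13980 genes, with line and treatment as terms and the lines as blocks. None of the 10 genes passed the Benjamini-Hochberg threshold of 0.05, where 0.351% of all genes were called higher and 0.236% lower. At an unadjusted p under 0.05 there were 3 of the 10, against 18.5% of all genes. ANXA2 had a shared log2 change of 0.63 (SE 0.22, adjusted p = 0.198), S100A11 of 0.58 (SE 0.22, adjusted p = 0.219) and S100A10 of 0.50 (SE 0.18, adjusted p = 0.208). The other 7 had shared changes from -0.09 for ANXA7 to 0.35 for ANXA4, with limma adjusted p from 0.344 to 0.807. Each of these changes had the same sign in both lines with FPKM as deposited. For ANXA1, ANXA3 and ANXA11 the sign in 22Rv1 is not secure. ANXA1 and ANXA3 were below 1 FPKM there, and ANXA11 was at 0.03, or -0.15 with equal sums. As the list was made with these libraries in view, the values describe the 10 genes and support nothing further. The p-values rest on how far the change differed between the lines, whose doses were unequal, and on a variance shared across genes. They measure no spread between replicates.

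The rest of the family was scarce. Of the 5 other annexins, ANXA10, a gastric and urothelial annexin, was listed at 0 in both 22Rv1 libraries and was at 4.01 and 3.99 FPKM in PC3 with and without morusin. ANXA9 was at 0.679 and 0.620 FPKM in 22Rv1, against 0.151 and 0.0783 FPKM in PC3, in the same order. ANXA8 reached at most 0.0372 FPKM, and ANXA8L1 and ANXA13 were listed at 0 in all 4 libraries.

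Among 17 other S100 genes, 7 were measured in the untreated comparison, and all 7 were at least 2-fold lower in 22Rv1, against 19.2% of all genes. Of these, 5 reached 1 FPKM in PC3 alone and so could only be lower in 22Rv1, and S100A6 and S100A13 reached it in both lines. With morusin 9 were measured, of which 6 were at least 2-fold lower in 22Rv1 and 1, S100A1, was at least 2-fold higher (1.15). Over all genes 18.6% were lower and 25.5% higher. Of the 9, 5 passed the filter through PC3 alone and 1, S100A1, through 22Rv1 alone. S100A6, which binds ANXA2 and ANXA11, was at 4.79 and 3.56 FPKM in 22Rv1 with and without morusin, against 523 and 458 FPKM in PC3. S100A16 was at 0 and 0.0576 FPKM in 22Rv1, against 274 and 256 FPKM in PC3. S100A4, a binder of non-muscle myosin, was at 0.142 and 0.162 FPKM in 22Rv1, against 29.7 and 29.8 FPKM in PC3. With morusin, S100A13, which takes part in release of FGF1, was the 1 gene of the 4 measured in 22Rv1 at 2-fold, at 16.8 against 6.71 FPKM untreated (log2 change 1.21), and was at 25.2 against 22.0 FPKM in PC3 (0.19). Of all genes in 22Rv1, 3.48% were at least 2-fold higher with morusin and 1.02% lower. With the length trend removed the changes of S100A13 were 0.76 and 0.03. S100A13 overlaps the gene ENSG00000271853 on its own strand, which was at 4.59 and 6.32 FPKM in 22Rv1 with and without morusin, and S100A1 on the opposite strand, which was at 1.70 and 0.710 FPKM in 22Rv1. Reads in the overlap on its own strand may be split between the genes, and its value is uncertain to that extent.

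**Figure D4:**
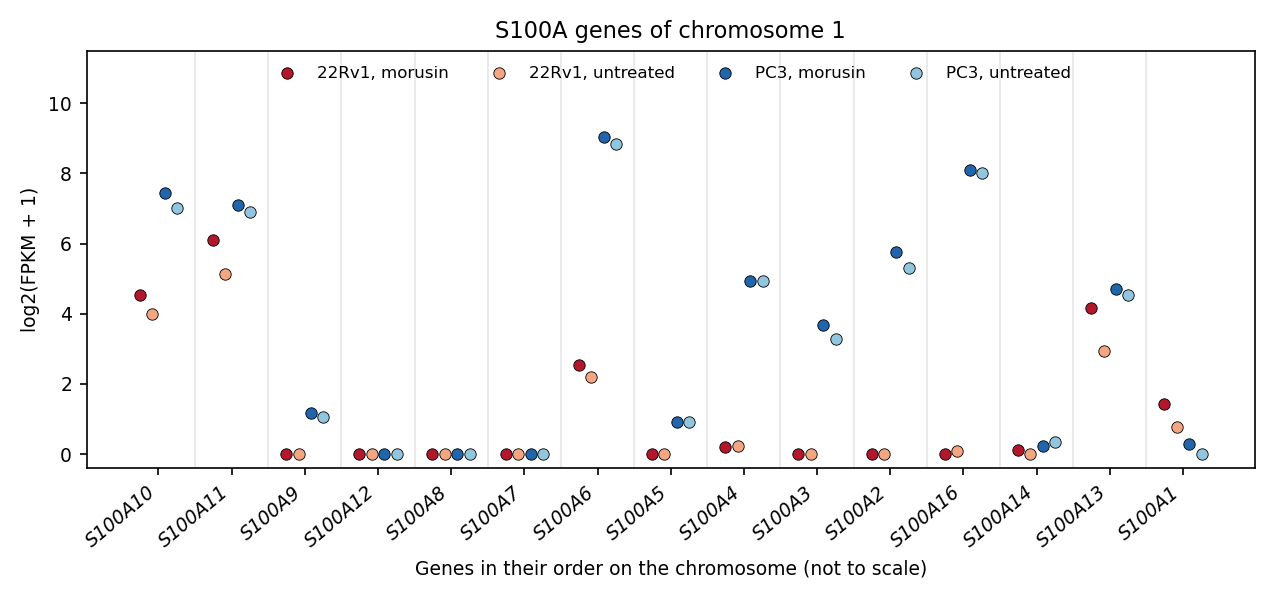
Level of the S100A genes of chromosome 1 as log2(FPKM + 1) on the y axis, with genes on the x axis in their order along the chromosome (not to scale) and 1 point for each of the 4 libraries. S100A6, S100A4, S100A3, S100A2 and S100A16 are high in PC3 and low or at 0 in 22Rv1, while S100A10, S100A11 and S100A13 are present in both lines.

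These S100 genes lie together on chromosome 1. On GRCh38, in GENCODE 29, S100A10 spans 151982915 to 151994390 and S100A11 spans 152032506 to 152047907, both on the minus strand. The run from S100A6 to S100A16, in which no gene passed 5 FPKM in 22Rv1, starts at 153534599 and ends at 153613145. S100A14, scarce in both lines, comes next, and S100A13, expressed in both lines, starts at 153618787.

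Binding partners of annexins were mixed. Of 14 partners, 11 were measured in untreated cells, and 6 were at least 2-fold lower and 0 at least 2-fold higher in 22Rv1, with a median of -1.30, against 19.2% lower and 19.8% higher over all genes. With morusin 5 of the 11 were lower and 0 higher, with a median of -0.24, against 18.6% and 25.5% over all genes. In both comparisons 3 of the 11, among them CAPN2 and DYSF, passed the filter on low values through PC3 alone. CAPN2, the large subunit of calpain 2, a calcium-activated protease of membrane repair, was at 0.651 and 0.292 FPKM in 22Rv1 with and without morusin, against 143 and 176 FPKM in PC3. DYSF, the membrane repair protein dysferlin, was at 0.0452 and 0.0159 FPKM in 22Rv1, against 11.4 and 8.56 FPKM in PC3. AHNAK, a giant scaffold that binds ANXA2 with S100A10, was at 5.27 and 7.93 FPKM in 22Rv1, against 50.1 and 65.01 FPKM in PC3, and was lower with morusin in both lines (log2 changes -0.51 and -0.37), with a shared change of -0.44 that limma did not call (adjusted p = 0.273). CAPNS1, the small calpain subunit, was at 332 and 256 FPKM in 22Rv1, against 254 and 176 FPKM in PC3, with a shared change of 0.45 (limma adjusted p = 0.225). FPR1, FPR2 and FPR3, the receptors of ANXA1, were listed at 0 in all 4 libraries.

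The plasminogen system meets ANXA2 with S100A10 at the cell surface. Of its 7 listed genes, 6 were at least 2-fold lower in 22Rv1 in either comparison of the lines. Over all genes 19.2% were at least 2-fold lower without morusin and 18.6% with it. Of the 6, 4 passed the filter through PC3 alone and so could only be lower in 22Rv1. PLAU, the urokinase gene, was at 0.286 and 0.0161 FPKM in 22Rv1 with and without morusin, against 434 and 330 FPKM in PC3. PLAUR, its receptor, was at 5.46 and 2.51 FPKM in 22Rv1, against 34.2 and 24.4 FPKM in PC3, with a shared morusin change of 0.68 (limma adjusted p = 0.172). PLGRKT, a plasminogen receptor that is not an annexin partner, was the exception, at 15.5 and 9.41 FPKM in 22Rv1 and 5.19 and 4.67 FPKM in PC3. Its log2 difference between the lines was 1.42 with morusin and 0.88 without it. The ESCRT machinery sheds damaged membrane. None of its 15 listed genes, which are ESCRT-III subunits, the ATPases VPS4A and VPS4B, the adaptor PDCD6IP and TSG101 of ESCRT-I, was at least 2-fold apart between the untreated lines. With morusin 1 of the 15, CHMP4A, was at least 2-fold higher in 22Rv1 than in PC3. Over all genes 19.2% were at least 2-fold lower and 19.8% higher in untreated 22Rv1. With morusin these shares were 18.6% and 25.5%. CHMP4B, a filament subunit of ESCRT-III, was at 65.9 and 50.2 FPKM in 22Rv1 and 108 and 85.7 FPKM in PC3.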

How the data were processed

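Total RNA from 22Rv1 and PC3 cultures gave 4 libraries, 1 per group, after 6 h. Per the labels' protocols, column-purified total RNA went into a TruSeq kit that was read in pairs on a HiSeq2500. The submitters' processing notes name Trimmomatic, HISAT2, StringTie and GRCh38, without versions, annotation release or strand use. The authors deposited FPKM for 60617 Ensembl gene IDs. FPKM are relative to each library's total, so abundant transcripts move all other values, and no count test was used.

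Symbols came from a gene name table (60261 IDs matched), and positions and lengths (median of protein-coding transcripts) from GENCODE 29. Depth was the step of FPKM times length, with the halved step, among small values of genes with a single exon between 600 and 5000 bases long (tolerance 1.5%). From 57 to 82 values in a library were at the step, out of 1490 to 1802, so depths, which were 19.1 to 40.6 M pairs, are rough. Genes with 1 FPKM or more in a library compared were used, with 1 added before log2, and 2-fold was the size counted. With 1 library per group no test was run between groups. The change shared by the lines was tested, two-sided, with limma 3.58.1 in R 4.3.3 on log2(FPKM + 1), with a mean trend in the prior variance and genes with 1 FPKM or more in 2 libraries. It has 1 residual degree of freedom, the labels name no separate cultures, and the lines are the blocks by the labels. It was tested on simulated data. Python 3.11.15, numpy 2.4.6 and pandas 2.3.3 were used.

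Genes outside the 10 are from fixed lists, named if they reach 5 FPKM in a library, up to 4 per list by line difference and 4 by morusin change, with other annexins and ANXA2 copies named at any level and the 5 genes nearest in pattern to ANXA2, S100A10 and S100A11. Some list genes that add nothing are left out. FPR1, FPR2, FPR3 and S100A1 were named after their values were seen. The genes and lists were chosen with earlier results of these data known. Promoters are RefSeq sequences on GRCh38.p14, in which all 10 genes matched by symbol.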

Additional observations from a re-analysis of the deposited data

Results flagged for a closer look

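Among the genes that the naming rule takes, 4 had changes with morusin in opposite directions in the lines, given here as log2 changes of FPKM + 1. The difference between the lines was not tested, and the share of all genes with opposite directions was not counted. PDCD6, the calcium sensor ALG-2 that binds ANXA7 and ANXA11, was at 0.85 in 22Rv1 and -0.21 in PC3. CHMP4A, an ESCRT-III subunit, was at 0.89 in 22Rv1 and -0.30 in PC3. SERPINE2, a protease inhibitor, was at -0.10 in 22Rv1 and 0.32 in PC3, and PDCD6IP, the ESCRT adaptor ALIX, was at -0.13 in 22Rv1 and 0.10 in PC3. Of the 4, only PDCD6 and CHMP4A had changes at least 2-fold apart, by 1.06 and 1.20, as had 4.23% of 11240 genes. With all-gene medians of -0.01 in 22Rv1 and -0.05 in PC3, opposite signs of small changes mark no response particular to a line. Outside the rule, and chosen after their values were seen, CHMP2B was at -0.18 in 22Rv1 and 0.29 in PC3, CHMP1B at -0.14 and 0.16, CHMP4C at -0.11 and 0.04, and ANXA2R at 0.12 and -0.16, also in opposite directions.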

How the results depend on the processing

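The count of genes at least 2-fold lower in 22Rv1 was 9 untreated under every alternative run, and 8 with morusin, or 9 with 0.1 FPKM added, equal sums or median centring. In 22Rv1 the 1 gene at 2-fold with morusin (ANXA2) became 0 with 5 FPKM added, with equal sums, with genes at 5 FPKM or more and with the length trend removed, an alternative chosen after seeing the data. The count of genes with a 2-fold line difference in change went from 0 to 1 with 0.1 FPKM added. Among 325 values of single genes under alternatives, 2 changed sign, both for ANXA11 with equal sums, at -0.15 in 22Rv1 and -0.030 in the shared change. Another 71 kept their sign but moved beyond counting error. That error was not applied to the shared changes among the 325, or to ANXA3 in the untreated comparison of the lines. The 71 are therefore not a share of all 325. With equal sums the morusin change in 22Rv1 went from 0.21 to 0.02 for ANXA6 and from 0.36 to 0.16 for ANXA5. Of all genes 2-fold changed in 22Rv1, 77.4% were higher as deposited, 42.1% with equal sums and 63.3% with the length trend removed. In the shared test limma called 0 of the 10 genes under all 8 alternatives, with a lowest adjusted p of 0.0877 (equal sums). Over all genes it called 49 higher and 33 lower, 308 and 1265 with equal sums, 33 and 20 with median centring, 69 and 100 with genes at 5 FPKM or more, 18 and 15 with 5 FPKM added, and 0 with no filter or with no replicate block, where 2282 and 54 genes had an unadjusted p under 0.05. No library could be left out, since 3 libraries leave no residual degree of freedom. Depth limits ANXA1, ANXA2 and ANXA3 in 22Rv1.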
